A study of Homo sapiens with 4 samples.

Results

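Cells rebuild NAD from vitamin B3 compounds by salvage, and 10 human genes of that route and of the enzymes around it were followed across all libraries of the series. The set was chosen by name and not by measured values. It held NAMPT, NAPRT and NMRK1, which open the salvage routes, NMNAT1, NMNAT2 and NMNAT3, which make the dinucleotide, NADK and NADK2, which phosphorylate NAD to NADP, NNT, which moves hydride from NADH to NADP, and NNMT, which methylates nicotinamide. All 10 genes were among the 50653 genes listed, and all 10 were among the 14321 genes with a mean of at least 1 FPKM (fragments scaled to transcript length and library total) that were tested. RNA-seq was done on BT-20 and MDA-MB-468, established human lines of triple-negative breast cancer. Each line had been transduced either with an shRNA against QPRT in the lentiviral vector pLKO.1-puro or with a lentiviral control shRNA, and selected with puromycin as a stable cell population. There were 4 libraries, 1 for each line and shRNA, so the 2 libraries of a line stood in for replicates. The p-values rested only on the spread between these libraries, pooled over the genes tested, and no line and shRNA was repeated. BT-20 was grown in EMEM and MDA-MB-468 in L-15, so line and medium cannot be told apart.

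NAMPT starts from nicotinamide, NAPRT from nicotinic acid and NMRK1 from nicotinamide riboside, and each yields a mononucleotide. An NMNAT then joins the mononucleotide to the adenylate of ATP. QPRT, the target of the knockdown, feeds the same step from quinolinic acid, the end of the tryptophan route. NAPRT and QPRT both make nicotinic acid mononucleotide, whereas NAMPT and NMRK1 make nicotinamide mononucleotide. The NMNAT enzymes differ in place: NMNAT1 is nuclear, NMNAT2 sits on Golgi and other cytosolic membranes, and NMNAT3 is mostly described in mitochondria. NADK is the cytosolic and NADK2 the mitochondrial NAD kinase.

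The libraries held between 10321998 and 10945948 fragments. QPRT, quinolinate phosphoribosyltransferase, was at 249 FPKM in BT-20 control cells against 40.5 FPKM in the knockdown, and at 117 against 18.3 FPKM in MDA-MB-468. The 6 epithelial markers examined lay between 76.1 and 4214 FPKM in every library, PGR was at 0 in all 4, and ESR1 lay between 1.05 and 5.76 FPKM. Summed levels of a 12-gene intestinal marker list were 55.8 FPKM in BT-20 control cells against 22.5 in the knockdown, and 130.04 against 25.5 for MDA-MB-468. A gastric list summed to 14.7 and 4.11 FPKM in BT-20 (control, then QPRT shRNA), against 29.5 and 3.55 for MDA-MB-468. A plasma cell list summed to 35.8 and 17.3 FPKM, against 86.4 and 17.3. Their part in the differences between shRNAs below was not tested.

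Between the lines, 9 of the 10 genes passed the test, against 55.1% of all genes tested, so calls were common over the whole transcriptome. The libraries of the lines did not overlap for 10 of the 10 genes, against 77.6% of all genes. With no filter on low values, limma called 0 genes of the set and 0 of all genes. NMNAT1, NMNAT3 and NNT were higher in MDA-MB-468, where 30.7% of all genes were called higher. NAMPT, NAPRT, NMNAT2, NADK, NADK2 and NNMT were lower there, where 24.4% of all genes were called lower. NMRK1 did not pass. The same 9 genes had an unadjusted limma p under 0.05, against 59.7% of all genes. Sizes differed widely: the median absolute log2 difference between lines was 1.67 over the 10 genes and 0.61 over all genes tested, and the median signed difference was -0.84 against 0.10. On the log2(FPKM + 1) scale, where the added 1 shrinks folds at low levels, NAPRT, NMNAT2, NMNAT3, NNT and NNMT differed at least 2-fold the same way with both shRNAs, 5 of 10 against 23.3% of all genes. On that scale NAPRT and NNMT differed at least 8-fold with both, 2 of 10 against 2.75%. By fragments alone, NMNAT1 was also past 2-fold with both shRNAs, and NMNAT2 and NMNAT3 past 8-fold. Differences between lines are given below as MDA-MB-468 minus BT-20 on the log2(FPKM + 1) scale, from limma with Benjamini-Hochberg adjustment over all genes tested, with n = 2 libraries a line. Fold values are ratios of fragments summed over both libraries of a line, with exact 95% intervals that cover counting error only.

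**Figure D1:**
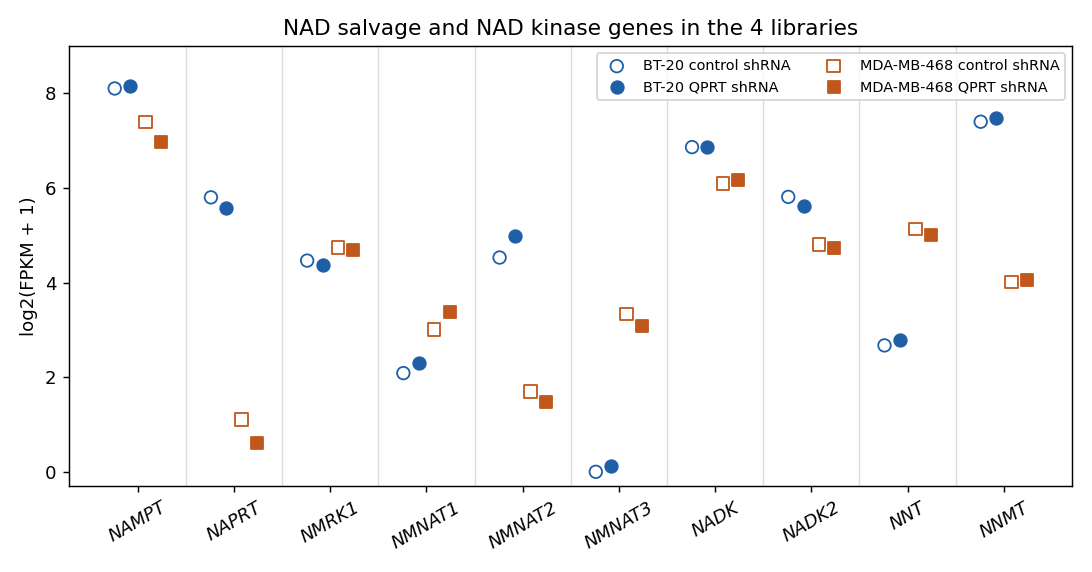
Log2(FPKM + 1) of each of the 10 genes in the 4 libraries, 1 point a library, with line and shRNA given by colour and marker. NAMPT lies highest in every library on this scale, and NAPRT, NMNAT2, NMNAT3 and NNMT show the widest gaps between the lines.

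NAMPT, the rate-limiting enzyme of nicotinamide salvage, had the highest FPKM of the set in every library. It was at 274 FPKM in BT-20 with control shRNA, 283 with QPRT shRNA, 167 in MDA-MB-468 with control shRNA and 124 with QPRT shRNA. Both BT-20 libraries lay above both MDA-MB-468 libraries, and the fold was 1.91 (1.83 to 1.99) in favour of BT-20 (log2 difference -0.95, SE 0.192, adjusted p = 3.62e-06). The gap was -0.71 log2 with control shRNA and -1.19 with QPRT shRNA. NAMPT (ENSG00000105835) spans chromosome 7 from 106248285 to 106286326 on the minus strand (GRCh38, GENCODE 29, as for all genes here). White blood cells are a known site of NAMPT. Of their markers, PTPRC, CD68 and LST1 were at most 0.340, 0.0756 and 0.856 FPKM in any library. CD14 was at 1.29 and 2.44 FPKM in BT-20, against 15.4 and 26.1 in MDA-MB-468. CSF3R was at 0 and 0.278 FPKM in BT-20, against 13.5 and 5.34 in MDA-MB-468. The 6-gene white blood cell list without S100A8, which carcinoma cells can also express, summed to 1.52 and 2.93 FPKM in BT-20, against 29.4 and 32.5 for MDA-MB-468. With S100A8 it summed to 172 and 387, against 310.4 and 168 FPKM. The part of such cells in the NAMPT levels was not tested. NAMPTP1, a processed copy of NAMPT, was at most 0.0365 FPKM. The deposited scale divides by a mean transcript length. Per kilobase of the longest protein-coding transcript instead, a setting added after the data were seen, some orders turned. In BT-20 NNMT came ahead of NAMPT, and NAPRT ahead of NADK2. In MDA-MB-468 NMRK1 came ahead of NADK2, both came ahead of NNT, and NMNAT1 came ahead of NMNAT3.

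NAPRT, which commits nicotinic acid to NAD synthesis, showed the widest gap of the set on the log2(FPKM + 1) scale. By fragments summed over a line NMNAT3, with 1 fragment in BT-20, had the larger ratio, 181 (32.1 to 7197). NAPRT was at 54.7 and 46.6 FPKM in BT-20 with control and QPRT shRNA, and at 1.15 and 0.521 FPKM in MDA-MB-468. These levels rested on 648 and 567 fragments in BT-20 and on 14 and 6 fragments in MDA-MB-468. The lines did not overlap, and NAPRT was 60.01-fold higher in BT-20 (38.7 to 98.6; log2 difference -4.83, SE 0.257, adjusted p = 9.08e-76). MDA-MB-468 kept 2.26% of the mean BT-20 level with control shRNA and 1.03% with QPRT shRNA. Ranked by its ratio between the lines, NAPRT was number 66 from the bottom among the 5673 genes with at least 20 FPKM in both BT-20 libraries. NMNAT2 and NNMT ranked 99 and 118 by the same measure. The filter used the BT-20 level alone, which favours genes lower in MDA-MB-468. These ranks therefore describe the gap and give it no separate support. NAPRT (ENSG00000147813) spans chromosome 8 from 143574785 to 143578649 on the minus strand.

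Genes around NAPRT were also mostly lower in MDA-MB-468. Of 69 tested genes starting within 1 Mb of it, 60 were lower (87.0%), against 45.2% of all genes tested, with a median log2 difference of -0.73. NAPRT's own -4.83 was far below that median, and PSCA, at -6.57, was the single neighbour further down. The neighbours of NADK2 had a like median, -0.74, over 7 genes of which 4 were lower. Elsewhere the median difference of the neighbours was 0.00 for NMNAT2, -0.05 for NMNAT3 and 0.45 for NNMT. NNT was higher in MDA-MB-468 by 2.34 log2 while 10 of its 13 neighbours were lower.

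**Figure D2:**
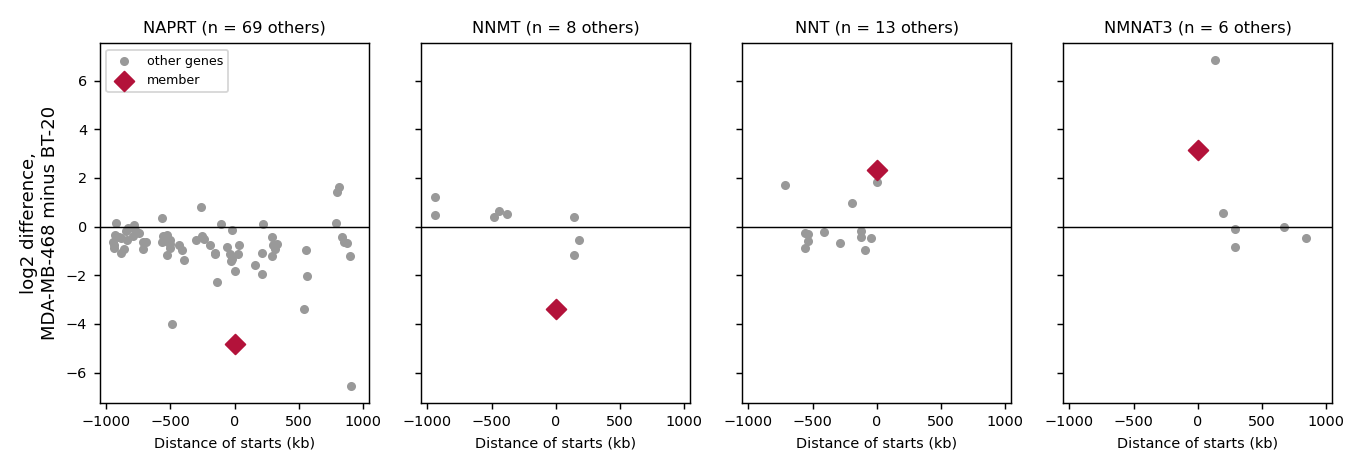
Log2(FPKM + 1) difference between lines (MDA-MB-468 minus BT-20) around NAPRT, NNMT, NNT and NMNAT3. Small points are tested genes starting within 1 Mb, and the named gene is marked separately. Most neighbours of NAPRT lie below 0 (60 of 69), and NAPRT lies below all of them but PSCA.

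NMRK1, nicotinamide riboside kinase, was the gene that did not pass between lines. It was at 21.1 and 19.7 FPKM in BT-20, against 25.7 and 24.6 FPKM in MDA-MB-468. The lines did not overlap, but the log2 difference of 0.29 was close to its error (SE 0.229, limma adjusted p = 0.281). Of the summed FPKM of the 3 entry enzymes, NAMPT held 78.3% and 81.0% in BT-20, against 86.1% and 83.1% in MDA-MB-468. NAPRT held 15.7% and 13.3% in BT-20 but 0.593% and 0.350% in MDA-MB-468, below NMRK1 with 13.3% and 16.5%. Shares of transcript say nothing of enzyme activity. NMRK1 (ENSG00000106733) spans chromosome 9 from 75060573 to 75088217 on the minus strand.

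The 3 NMNAT genes changed rank between the lines. In BT-20 the order was NMNAT2, then NMNAT1, then NMNAT3, and in MDA-MB-468 it was NMNAT3 and NMNAT1, whose ranges overlapped, then NMNAT2. Per longest protein-coding transcript, NMNAT1 came ahead of NMNAT3 in both MDA-MB-468 libraries. NMNAT2, the labile cytosolic form best known from axons, was at 22.1 and 30.5 FPKM in BT-20 with control and QPRT shRNA. It was at 2.25 and 1.78 FPKM in MDA-MB-468, with no overlap. The fold was 13.0 in favour of BT-20 (11.0 to 15.6; log2 difference -3.17, SE 0.259, limma adjusted p = 1.56e-32). NMNAT2 (ENSG00000157064) spans chromosome 1 from 183248237 to 183418602 on the minus strand.

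NMNAT3 was close to undetected in BT-20. It was listed at 0 with control shRNA and at 0.0903 FPKM with QPRT shRNA there, and at 9.09 and 7.45 FPKM in MDA-MB-468. The smallest whole numbers in proportion to these values were 0, 1, 101 and 78 fragments, which imply a length of 1015 bases where the mean transcript has 1746. With control shRNA it was at least 32.7-fold higher in MDA-MB-468, taking 3 fragments as the floor for BT-20. That bound leaves out the counting error of the 101 fragments, and the exact interval of the ratio began at 26.1. With QPRT shRNA the ratio was 82.4 with an interval from 14.4 to 3298. The fitted log2 difference was 3.14 (SE 0.295, limma adjusted p = 5.05e-25). AC097103.2, a transcript annotated antisense to NMNAT3, ran the other way, at 7.53 and 8.0 FPKM in BT-20, against 3.16 and 4.76 in MDA-MB-468. The sources used here do not give the strand setting of the counting, so reads from overlapping antisense partners cannot be told apart. NMNAT3 (ENSG00000163864) spans chromosome 3 from 139560180 to 139678017 on the minus strand.

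NMNAT1, the nuclear enzyme, was at 3.24 and 3.93 FPKM in BT-20, against 7.07 and 9.32 FPKM in MDA-MB-468. The lines did not overlap, and NMNAT1 was 2.27-fold higher in MDA-MB-468 (1.82 to 2.84; log2 difference 1.00, SE 0.271, limma adjusted p = 0.000684). The gene (ENSG00000173614) spans chromosome 1 from 9943428 to 9985501 on the plus strand. Summed over the 3 genes, the level per length was 25.3 and 34.5 FPKM in BT-20, against 18.4 and 18.5 in MDA-MB-468. The make-up of that sum differed more than its size: NMNAT2 held 87.2% and 88.4% in BT-20, against 12.2% and 9.58% in MDA-MB-468, while NMNAT3 held 0% and 0.261%, and 49.4% and 40.1%. NMNAT1 held 12.8% and 11.4% in BT-20, against 38.4% and 50.3% in MDA-MB-468.

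**Figure D3:**
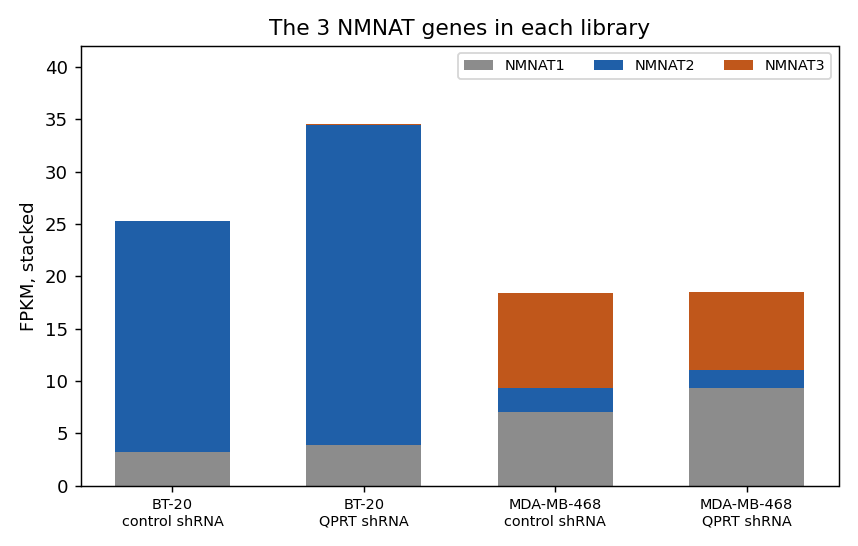
FPKM of NMNAT1, NMNAT2 and NMNAT3 stacked for each of the 4 libraries. NMNAT2 makes up 87.2% and 88.4% of the bar in BT-20, against 12.2% and 9.58% in MDA-MB-468.

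The sequences just ahead of the starts of NMNAT1 and NMNAT3 are shown because these genes were higher in MDA-MB-468 to different degrees, by 1.00 and 3.14 log2. They come from RefSeq promoter windows on GRCh38.p14, read on the strand of the gene and ending at the base before the start, chr1:9943225-9943427 for NMNAT1 and chr3:139678018-139678300 for NMNAT3. Capitals mark GGGCGG or its reverse complement CCGCCC, the core of the GC box.
NMNAT1: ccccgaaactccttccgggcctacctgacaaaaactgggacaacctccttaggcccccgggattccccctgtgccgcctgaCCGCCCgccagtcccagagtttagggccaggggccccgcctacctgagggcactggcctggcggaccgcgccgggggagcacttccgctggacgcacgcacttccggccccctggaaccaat
NMNAT3: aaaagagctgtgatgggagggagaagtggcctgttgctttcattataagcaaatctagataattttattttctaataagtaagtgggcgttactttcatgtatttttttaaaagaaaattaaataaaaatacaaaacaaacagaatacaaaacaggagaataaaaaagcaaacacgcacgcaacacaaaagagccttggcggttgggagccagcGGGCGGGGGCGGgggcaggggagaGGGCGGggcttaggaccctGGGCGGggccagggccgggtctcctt
NMNAT1 held 1 such match in 203 bases and NMNAT3 held 4 in 283 bases, all 4 of them in the stretch nearest the start. Of the 35116 RefSeq windows of 300 bases, 45.0% held at least 1 match and 9.06% at least 4. A match describes letters and is not a binding site. Windows were found for 7 of the 10 genes. Over the full 300 bases, those of NMNAT3 held 6 and 5 matches and that of NMNAT1 held 1. Of the genes lower in MDA-MB-468, NAMPT held 3, NMNAT2 0, NADK at most 5 and NADK2 at most 4 a window. NNT, higher there, held 1 and 2.

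Both NAD kinases were higher in BT-20. NADK, which supplies cytosolic NADP, was at 115 and 116 FPKM in BT-20, against 67.2 and 70.8 in MDA-MB-468. The fold was 1.68 (1.58 to 1.78; log2 difference -0.74, SE 0.201, limma adjusted p = 0.000687). NADK2, its mitochondrial counterpart, was at 55.1 and 48.1 FPKM in BT-20, against 26.9 and 25.6 in MDA-MB-468. Its fold was 1.962 (1.81 to 2.13; log2 difference -0.95, SE 0.217, limma adjusted p = 4.66e-05). NADK2-AS1, antisense to NADK2, was at most 1.70 FPKM. For both kinases the BT-20 libraries lay above the MDA-MB-468 libraries. NADK held between 67.7% and 73.4% of the summed FPKM of the kinases in all 4 libraries, so the balance of the pair differed little where the NMNAT balance turned. NADK (ENSG00000008130) spans chromosome 1 from 1751232 to 1780457 and NADK2 (ENSG00000152620) chromosome 5 from 36192592 to 36242279, both on the minus strand.

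NNT, the transhydrogenase of the inner mitochondrial membrane that makes mitochondrial NADPH, was at 5.37 and 5.93 FPKM in BT-20. It was at 34.0 and 31.2 FPKM in MDA-MB-468, with no overlap. NNT was 5.78-fold higher in MDA-MB-468 (5.03 to 6.66; log2 difference 2.34, SE 0.242, limma adjusted p = 1.14e-20). By FPKM it ranked above NADK2 in MDA-MB-468, an order that turned per longest transcript, and in BT-20 it ranked below NADK2, NAPRT, NMNAT2 and NMRK1. NNT-AS1, which begins inside NNT 0.538 kb from its start and runs over that start on the other strand, differed the same way, at 5.07 and 3.50 FPKM in BT-20, against 15.8 and 19.3 in MDA-MB-468. NNT (ENSG00000112992) spans chromosome 5 from 43602692 to 43707405 on the plus strand. The stretch just ahead of NNT, which lies inside NNT-AS1, is shown for that reason, chr5:43602425-43602691 on the plus strand of GRCh38.p14 from RefSeq, with its match to CCGCCC in capitals.
NNT: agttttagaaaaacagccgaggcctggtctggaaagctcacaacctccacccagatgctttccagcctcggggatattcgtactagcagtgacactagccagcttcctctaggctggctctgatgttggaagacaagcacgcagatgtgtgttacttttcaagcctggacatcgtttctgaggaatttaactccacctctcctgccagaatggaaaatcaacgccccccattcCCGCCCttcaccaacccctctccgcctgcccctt

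NNMT, nicotinamide N-methyltransferase, which draws nicotinamide out of the salvage pool, was at 168 and 178 FPKM in BT-20, behind NAMPT alone. In MDA-MB-468 it was at 15.1 and 15.7 FPKM, behind NAMPT, NADK, NNT, NADK2 and NMRK1. The lines did not overlap, and the fold was 11.2 in favour of BT-20 (9.90 to 12.7; log2 difference -3.40, SE 0.210, limma adjusted p = 7.29e-57). Fibroblasts and liver cells are known sites of NNMT. Of 6 fibroblast markers, COL1A1 lay between 14.7 and 32.0 FPKM and the other 5 were at most 1.32 FPKM, and the summed list was 33.3 and 21.7 FPKM in BT-20, against 20.5 and 15.5 in MDA-MB-468. The 6 hepatocyte markers summed to between 2.16 and 6.27 FPKM. CYP3A4, the highest of them in each library, was at 1.65 and 1.09 FPKM in BT-20, against 3.07 and 0.746 in MDA-MB-468. ALB was at 0 in BT-20, against 0.338 and 0.269 FPKM in MDA-MB-468. The part of either cell type in the NNMT levels was not tested. NNMT (ENSG00000166741) spans chromosome 11 from 114257787 to 114313285 on the plus strand.

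**Figure D4:**
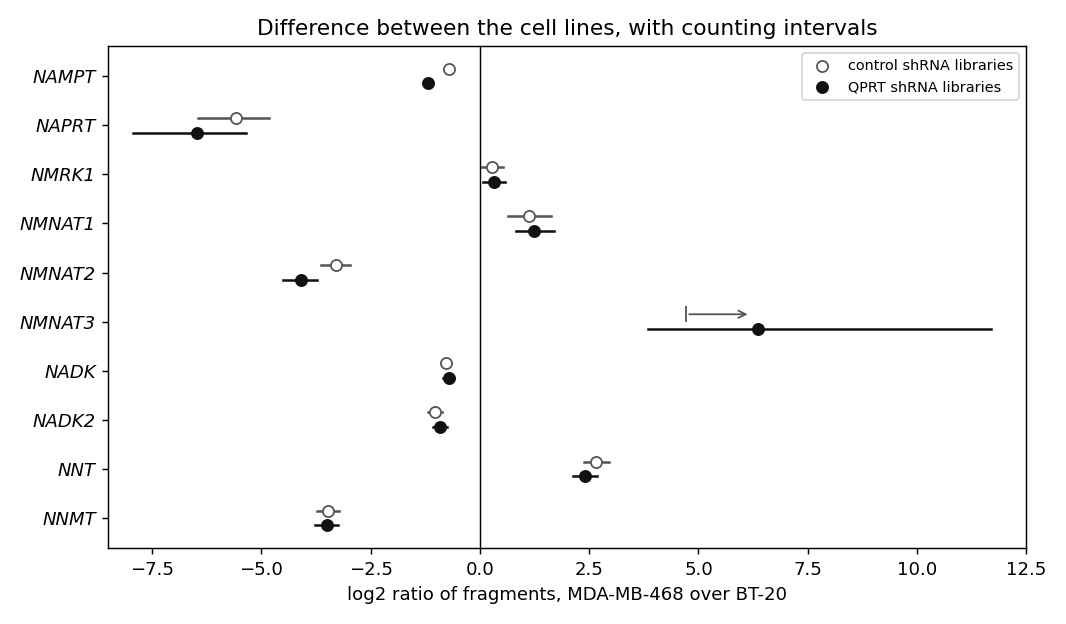
Log2 ratio of fragments, MDA-MB-468 over BT-20, for each of the 10 genes, given separately for control and QPRT shRNA with exact counting intervals. Each gene keeps its sign with both shRNAs, and NAPRT lies lowest, at -5.58 and -6.48. NMNAT3 lies at 6.37 with QPRT shRNA. With control shRNA, where BT-20 held 0 fragments, an arrow starts at its lower limit, 4.71.

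The knockdown libraries were compared with the controls of the same line. Over both lines, 0 of the 10 genes passed the limma test, against 0.628% of all genes tested (0.265% higher and 0.363% lower), and 0 had an unadjusted p under 0.05, against 4.8%. The log2 differences (QPRT minus control shRNA) ran from -0.36 for NAPRT to 0.29 for NMNAT1, with an adjusted p of 1.00 for each in this limma fit. The errors of these differences lay between 0.192 and 0.295 log2, so changes of that size were not detectable. Larger ones could also be missed. KYNU, a gene outside the set, differed by 0.84 log2 (SE 0.239) and did not pass (limma adjusted p = 0.0640). Within a line the design held 1 library against 1, which allows no test, and on the log2(FPKM + 1) scale 0 genes of the set reached 2-fold in BT-20 or MDA-MB-468, against 1.7% and 1.89% of all genes. NAPRT in MDA-MB-468 was past 2-fold by fragments alone, on few of them.

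The widest shifts within a line were in NAMPT, NMNAT2 and NAPRT. NAMPT went from 2095 to 1467 fragments in MDA-MB-468, a log2 fragment ratio of -0.43 (-0.53 to -0.33), and from 3335 to 3547 in BT-20, a ratio of 0.05 (-0.02 to 0.12). NMNAT2 went from 780 to 1108 fragments in BT-20, a ratio of 0.47 (0.33 to 0.60), and from 82 to 61 in MDA-MB-468, a ratio of -0.34 (-0.84 to 0.15). NAPRT had lower values with QPRT shRNA in both lines, with ratios of -0.23 (-0.40 to -0.07) in BT-20 and -1.14 (-2.80 to 0.33) in MDA-MB-468, the latter on 14 and 6 fragments. The interval covered counting error alone, and it lay clear of 0 for 3 genes in BT-20 (NAPRT, NMNAT2 and NADK2) and 2 in MDA-MB-468 (NAMPT and NMNAT1). Over all genes that share was 43.8% in BT-20 against 44.4% in MDA-MB-468, so an interval clear of 0 was common in these libraries.

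The remaining genes had smaller differences. NMNAT1 had log2 fragment ratios of 0.28 (-0.27 to 0.83) in BT-20 and 0.40 (0.04 to 0.76) in MDA-MB-468. NADK2 had ratios of -0.20 (-0.33 to -0.06) in BT-20 and -0.07 (-0.26 to 0.12) in MDA-MB-468. NMNAT3 had a ratio of -0.29 (-0.73 to 0.15) in MDA-MB-468 and none in BT-20, where its control library held 0 fragments. On the log2(FPKM + 1) scale NMRK1 differed by -0.09 in BT-20 against -0.06 in MDA-MB-468, NADK by 0.01 and 0.08, NNMT by 0.08 and 0.05, and NNT by 0.12 and -0.12. The sign was the same in both lines for 6 genes and opposite for 4, NAMPT, NMNAT2, NMNAT3 and NNT, where 54.6% of all genes had opposite signs. With GC and length trends removed, NAMPT and NNT had the same sign in both lines and NMRK1, NADK, NADK2 and NNMT had opposite ones. In bulk RNA, fewer cells expressing a gene and less RNA in each cell cannot be told apart.

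**Figure D5:**
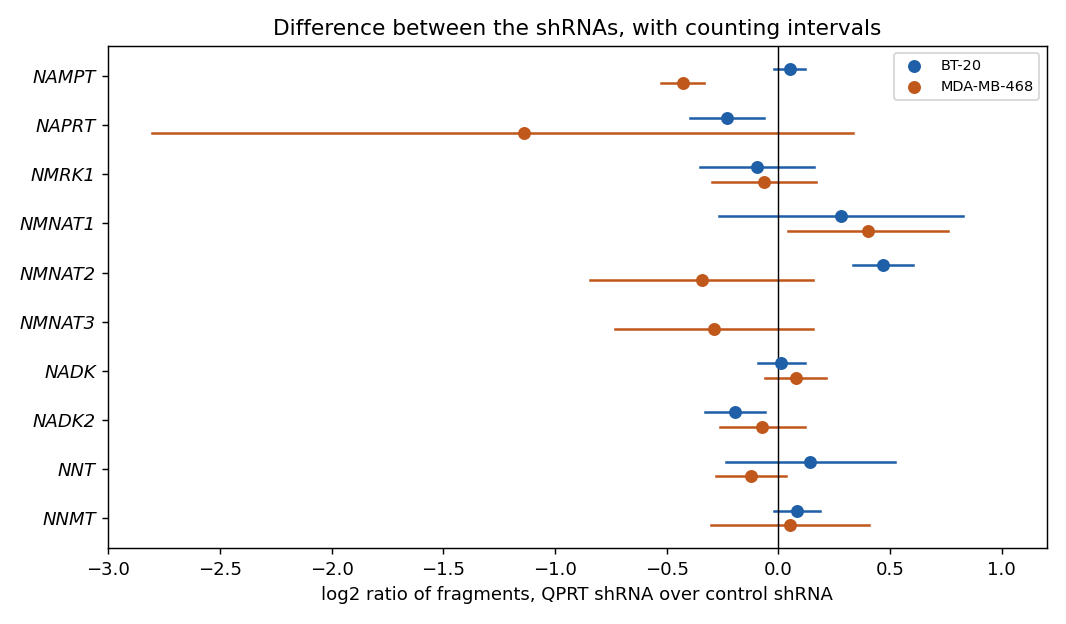
Log2 ratio of QPRT shRNA over control shRNA for each of the 10 genes in BT-20 and MDA-MB-468, with exact 95% counting intervals of the fragment ratio. NMNAT3 has no point in BT-20, where its control library held 0 fragments. NAMPT in MDA-MB-468 (-0.43) and NMNAT2 in BT-20 (0.47) lie clear of 0, and NAPRT in MDA-MB-468 (-1.14) has a wide interval.

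Other genes that make, carry or use NAD were counted from lists. Of the 10 genes of the tryptophan and nicotinic acid routes 5 could be tested, and between lines 2 were higher in MDA-MB-468, 1 was lower and 2 did not pass, or 3 of 5 called against 55.1% of all genes. KYNU, kynureninase, was at 3.0 and 13.7 FPKM in BT-20, against 38.04 and 33.0 in MDA-MB-468 (log2 difference 2.25, limma adjusted p = 9.55e-20). NADSYN1, the NAD synthetase that NAPRT and QPRT products need, was at 29.4 and 32.0 FPKM in BT-20, against 74.0 and 74.6 in MDA-MB-468 (1.25, limma adjusted p = 2.08e-08). NADSYN1 was higher in the line with the lower NAPRT and QPRT levels. QPRT was lower in MDA-MB-468, by a log2 difference of -1.09, although its libraries overlapped between lines and the call was lost with no block (limma adjusted p = 0.346) and with no filter. QPRT also passed between shRNAs, a call lost in the same settings. KYNU did not pass between shRNAs (limma adjusted p = 0.0640), but did at a pseudocount of 0.1 (0.0298).

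Of the 12 transport and breakdown genes 7 could be tested, and 5 were higher in MDA-MB-468, 1 was lower and 1 did not pass, or 6 of 7 called against 55.1% of all genes. NT5E, the surface nucleotidase CD73, was at 6.44 and 17.6 FPKM in BT-20, against 100.02 and 44.2 in MDA-MB-468 (log2 difference 2.52, limma adjusted p = 6.45e-28). NT5C2, NUDT12 and SLC25A51, a cytosolic nucleotidase, an NADH hydrolase and the mitochondrial NAD carrier, were higher in MDA-MB-468 by 1.39, 0.89 and 0.68 log2. SLC12A8, a solute carrier proposed to take up nicotinamide mononucleotide, was lower there (-1.50, limma adjusted p = 3.01e-10). It was also the list's gene called between shRNAs, at 24.0 and 68.3 FPKM with control and QPRT shRNA in BT-20, against 12.1 and 15.4 in MDA-MB-468 (log2 difference 0.90, SE 0.227, limma adjusted p = 0.0214). That call was lost once trends with GC content and length were removed (limma adjusted p = 0.793), without the trend of spread on expression (0.0569), and with no block or no filter. Among 5 NAD consumers 3 could be tested, and SARM1 and SIRT1, an NAD hydrolase and a deacetylase, were higher in MDA-MB-468 by 1.38 and 0.91 log2 while PARP1 did not pass. That is 2 of 3 called, against the same 55.1%.

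Genes with a pattern most like those of NAPRT and NMNAT2, the genes of widest range on that scale, were found by Euclidean distance of centred log2(FPKM + 1) over the 4 libraries. For NAPRT these were PADI3, CIB2 and PPP2R2C, at distances of 0.280, 0.283 and 0.302. For NMNAT2 they were CXCL17, SATB1 and FAR2P4, at 0.0793, 0.117 and 0.184. The 4 libraries come from 2 lines, so many genes that differ between the lines lie close.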

How the data were processed

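RNA of 4 libraries, 1 for each line and shRNA, was sequenced by the authors, and the deposited values are FPKM per Ensembl gene, which the authors obtained by dividing fragments by transcript length and library total. The submitters' processing notes name TopHat2 2.0.12 and HTSeq 0.6.1, with no role. The genome build, annotation and strand setting are not given in the sources used here. The authors used DESeq2, which needs counts and was not run here.

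The 50653 genes listed were joined to symbols and to GENCODE 29, and 27 repeats of a symbol were left out. FPKM times mean transcript length, over what 1 fragment is worth in a library, was whole within 0.02 for 85.3% to 85.6% of values above 0 and for 97.6% to 97.8% in genes with a single transcript, and fragment numbers come from this step. For NMNAT3 the length did not give whole numbers, and the smallest whole numbers in proportion were used. Fragments carry no molecular identifiers, so Clopper-Pearson 95% intervals and the floor of 3 fragments cover counting error only.

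The 14321 genes whose mean FPKM reached 1 were fitted with limma 3.58.1 (R 4.3.3) on log2(FPKM + 1), with line and shRNA as terms and eBayes with a trend, and called at an adjusted p under 0.05. With 1 residual degree of freedom a gene, limma used the common trend of spread and gave no weight to a gene's own spread. Counting noise also depends on gene length, which a fit on FPKM does not see. The fit was tested on simulated data, where false calls exceeded the nominal rate once fragment counting noise was simulated, more so than for limma-voom. Fold values within a line were differences of 1 library against 1, with no test.

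All 10 genes of the set were named, whatever their values. From each other list, up to 5 genes a comparison past the threshold were named by size. A result that this rule would name is not reported here. The set, lists and tests were chosen with earlier results of these data known. Alternatives were another pseudocount (0.1), upper quartile and TPM scaling, other filters, removal of GC and length trends, no block, no trend, limma-voom on fragments, and a 1.5-fold threshold.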

Additional observations from a re-analysis of the deposited data

Results flagged for a closer look

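For NAMPT and NMNAT2 the log2 fragment ratio of QPRT over control shRNA pointed in opposite directions in the lines, and the difference between the ratios exceeded counting error. For NAMPT the ratio in MDA-MB-468 minus that in BT-20 was -0.48 (95% interval -0.60 to -0.36), and for NMNAT2 it was -0.81 (-1.31 to -0.31). With 1 library for each line and shRNA, the difference between lines was not tested over replicates. How many of all genes tested show a like difference between the ratios was not counted. The shRNA difference had opposite signs for 54.6% of all genes. The counting interval of the ratio lay clear of 0 for 43.8% of genes in BT-20, against 44.4% for MDA-MB-468. Each of these features alone was thus common in these libraries. With GC and length trends removed, NAMPT had the same sign in both lines, at -0.07 in BT-20 against -0.33 in MDA-MB-468 on the log2(FPKM + 1) scale.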

How the results depend on the processing

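The count of 9 genes called between lines was kept under another pseudocount, both scalings, GC and length removal, no block, no trend and voom. With a mean of at least 5 FPKM, NMNAT3 was not tested and 8 of 9 were called. With no filter 0 of 10 were called by limma, with 0 of all 50626 genes called and 10 of 10 under an unadjusted p of 0.05. For NAMPT the error of the line difference was 0.192 with and without the filter. The degrees of freedom behind its p-value were 14321 in the main fit and 1.94 with no filter. The cause of the lost calls was not tested. For the shRNA, 0 genes of the set were called in each setting, while the count over all genes was 90, against 45 with a mean of at least 5 FPKM, 2 with GC and length trends removed, and by limma 0 with no block (17 at an unadjusted p under 0.05) and 0 with no filter (813). Between lines the count over all genes was 7893, and 0 with no filter. At a pseudocount of 0.1, 1 gene reached 2-fold in MDA-MB-468, NAPRT with -1.01 log2, on 14 and 6 fragments. Shifts with shRNA near 0 changed sign: NMNAT3 was 0.32 at a pseudocount of 0.1, and NNT was -0.020 with upper quartile scaling, -0.050 with GC and length removal and -0.030 with voom. NAMPT in BT-20 went from 0.05 to -0.07 with GC and length removal. The shRNA comparison was already made within line, since line and shRNA are terms of the fit, and the labels give no replicate numbers for any further pairing. Leaving out a library leaves no residual degrees of freedom. Depth limits NAPRT in MDA-MB-468 and NMNAT3 in BT-20, which rest on at most 14 fragments a library.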

Other observations

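Enzymes that make NADPH use the NADP that the kinases supply. All 12 of the list could be tested, and 3 were higher in MDA-MB-468, 5 were lower and 4 did not pass, or 8 of 12 called against 55.1% of all genes (30.7% higher and 24.4% lower). IDH1, the cytosolic isocitrate dehydrogenase, was at 662 and 698 FPKM in BT-20 with control and QPRT shRNA and at 206 and 157 in MDA-MB-468 (log2 difference -1.91, limma adjusted p = 1.14e-22). ALDH1L1, the cytosolic formyltetrahydrofolate dehydrogenase, was at 30.1 and 21.9 FPKM in BT-20 and at 0 and 0.0466 in MDA-MB-468. Its mitochondrial counterpart ALDH1L2 ran the other way, at 4.0 and 4.58 against 26.9 and 18.9 FPKM (2.16, limma adjusted p = 1.88e-16). ME3, a mitochondrial malic enzyme, was at 0 and 0.0774 FPKM in BT-20 and at 12.3 and 15.3 in MDA-MB-468. Between shRNAs 0 of the 12 passed the limma test, and IDH2 and ME1 had adjusted p of 0.9497 and 0.945 in that fit, the lowest of the list.

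NNMT uses S-adenosylmethionine. Of 9 genes of the methyl donor cycle 7 could be tested, and 2 were higher in MDA-MB-468, 3 were lower and 2 did not pass, or 5 of 7 called against the same 55.1%. MAT2A and MAT2B, the subunits of the enzyme that makes S-adenosylmethionine, were higher by 1.14 and 1.17 log2. AHCY, which clears the spent donor, was lower by a log2 difference of -1.38, MTR, methionine synthase, by -0.71 and AHCYL1 by -0.63. Between shRNAs 0 of these 7 passed the limma test, also with none at an unadjusted p under 0.05.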
